A study of Mus musculus with 18 samples.

Results

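The genes described here encode the enzymes, transporters and regulators of glycolysis, of the fate of pyruvate and lactate and of the pentose phosphate pathway. They were listed by function, with no threshold on a measured value but with earlier results of these data known. The list holds 34 gene symbols of the 25239 genes of the deposited table. Of the 34, 33 were among the 12828 genes that could be tested. The glucose transporter gene Slc2a3 could not, as it did not exceed 0.114 TPM (a level per transcript length, scaled to the same total in every library) in any library.

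Glycolysis splits glucose into pyruvate. It runs through a preparatory phase, from glucose entry to the cleavage of fructose bisphosphate, and a pay-off phase, in which triose phosphates are turned into pyruvate with a gain of ATP. Pyruvate is then reduced to lactate, which leaves the cell through monocarboxylate transporters, or oxidised in mitochondria by the pyruvate dehydrogenase complex. The pentose phosphate pathway branches off at glucose 6-phosphate: its oxidative arm makes NADPH and its non-oxidative arm interconverts sugar phosphates and supplies ribose for nucleotides. Tumours with high glycolysis release lactate even where oxygen is present, and p53 is known to act on several of these steps, for example through Tigar, a known p53 target.

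RNA came from 3 mouse small cell lung cancer lines (4711-1, 4711-18 and 4716-11), all classed as Type D in the study because they die when p53 returns. The tumours had been started by Cre delivered with an adenovirus under a CMV promoter, so all cells lack Rb1 and Rbl2. They derive from mice with the XTR allele of Trp53, in which Cre turns a gene trap into the position that silences p53, and with a FlpO-ER recombinase at Rosa26, which cuts the trap out again in the presence of tamoxifen. Each line had been transduced with a CRISPR vector carrying sgBgal (the control sgRNA, against β-Gal), sgPpia#3.2 or sgPpia#4.1, of which the last 2 target Ppia, the gene of cyclophilin A. The Ppia-targeted cells were pools with reduced, not absent, cyclophilin A. Each of these 9 cultures was given vehicle (Control, p53 off) or 4-hydroxytamoxifen (Restored, p53 on) for 72 h, which made 6 conditions with 3 libraries each, 1 per line.

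The p53 switch worked in every library: Trp53 was at 5.45 to 8.41 TPM in the 9 Control libraries and 181 to 235.9 TPM in the 9 Restored ones, and Cdkn1a, the p53-induced cell cycle inhibitor, was at 99.4 to 369 and 1565 to 3806 TPM. Of 6 neuroendocrine markers 4 reached 1 TPM in some library, while Chga and Calca, markers of neuroendocrine lung cells, stayed at or under 0.156 TPM in all of them. None of 3 fibroblast markers and 1 of 2 endothelial markers (Pecam1, at most 1.26 TPM) reached 1 TPM. Of 3 immune markers only Cd68, a lysosomal gene used for macrophages, did: the list summed to 2.16 to 7.13 TPM in Control and 21.4 to 39.8 TPM in Restored libraries, while the leukocyte gene Ptprc stayed at or under 0.0814 TPM and the T cell gene Cd3e at or under 0.159 TPM. The part of Cd68-positive cells in the results was not tested. The steps between low values put the libraries within 1.78 times of each other in depth, with a median of 1.56 in Control and 1.3 in Restored libraries relative to the shallowest. A single library stood apart in these pathways. In 4711-18 with sgPpia#3.2, Control, 15 of the 33 tested genes had their highest value of the 9 Control libraries, against 21.1% of all tested genes, and so did 11 of 13 HIF target genes outside glycolysis (Ndrg1, a hypoxia-induced gene, was at 648.9 TPM there and at 70.5 to 205.4 TPM in the others). Calls of the pathway genes that changed without this library are given beside the results.

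The first question was how the pathway genes moved when p53 was restored. Most of the abundant glycolytic enzymes fell, and each called gene had a fold change of the same sign in all 3 lines. Averaged over the 3 sgRNAs, 17 of 33 genes fell and 5 rose at an adjusted p under 0.05 (limma on log2(TPM + 1), Benjamini-Hochberg adjustment over all 12828 genes). Over all genes tested the same rule called 11.2% lower and 27.9% higher, so the pathway genes were called lower in 51.5% and higher in 15.2% of cases. Their median log2 fold change was -0.35, whereas that of all tested genes was +0.17, a general shift of TPM against which every change here is to be read. With a change of at least 2-fold required as well, 3 genes remained: Aldoc and Slc16a1 fell and Ldhb rose, against 2.56% of all genes lower and 6.37% higher.

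The direction was shared by the cultures. In each of the 9 pairs of Restored and Control libraries of the same line and sgRNA, 17 genes were lower (12.8% of all tested genes) and 5 were higher (30.8%). Between all 9 Control and all 9 Restored libraries, 5 genes did not overlap and were lower (Tpi1, Eno1, Ldha, Slc16a1 and Tkt; 3.06% of all genes) and 2 were higher (Hk1 and Ldhb; 8.12%). When the line was added to the fit as a replicate block, 18 genes fell and 7 rose (19.3% and 44.1% of all genes). With the 3 sgRNAs of a line averaged to 1 value per line and state, so that only the lines were replicates, 18 fell and 5 rose (13% and 33%). After rescaling by medians of ratios, which centres the median gene near 0, 19 fell and 2 rose (18.7% and 18.3% of all genes), since Hk1, Tigar and Pgls no longer passed (adjusted p = 0.060, 0.14 and 0.27 in limma). Without the 4711-18 sgPpia#3.2 Control library, 15 fell and 7 rose (11.2% and 29.3% of all genes).

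**Figure D1:**
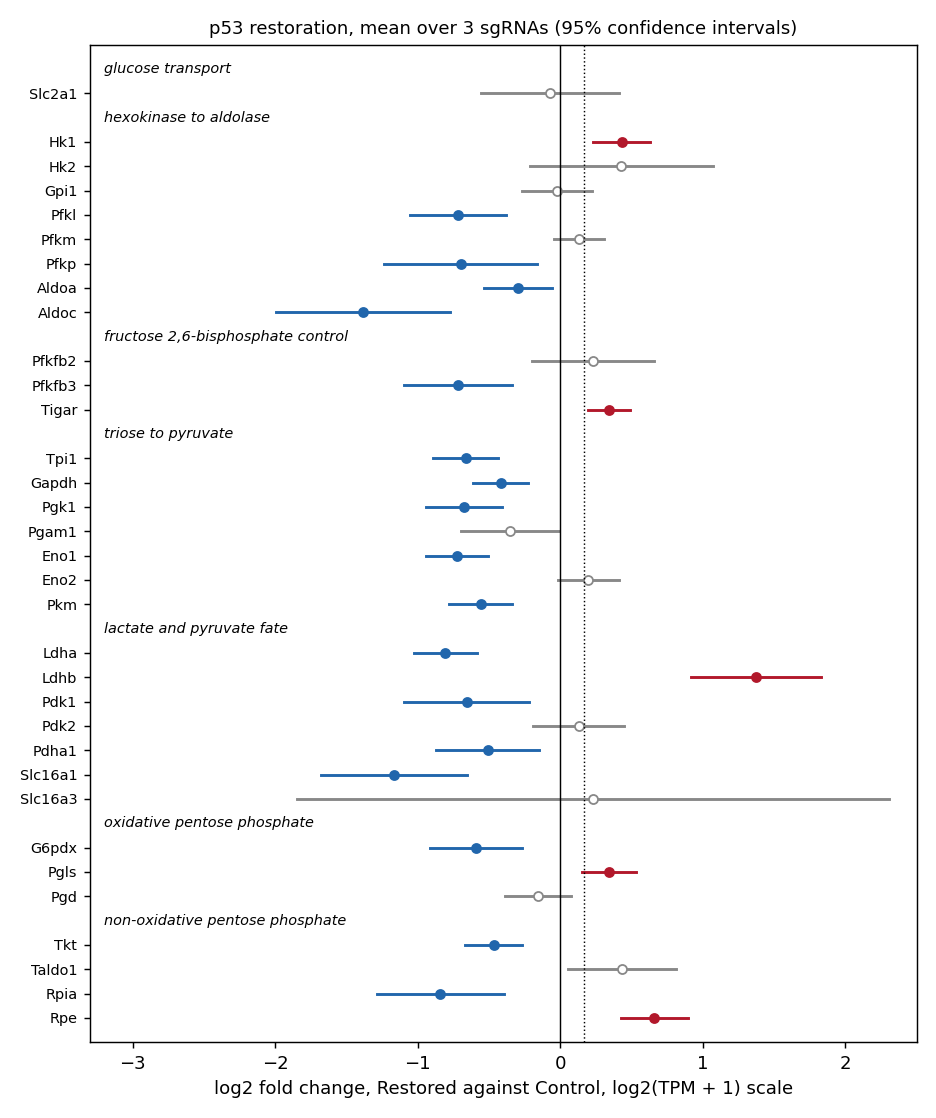
Log2 fold change of each gene, Restored against Control, averaged over the 3 sgRNAs, on the log2(TPM + 1) scale (horizontal axis); genes are grouped by step. Lines are 95% confidence intervals, filled blue and red points passed an adjusted p of 0.05 (17 lower and 5 higher), open grey points did not, and the dotted line marks the median of all tested genes at 0.17.

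The summed level of the 34 genes showed the size of the shift. It was 16400 TPM in the lowest, 19100 in the median and 23350 in the highest Control library, and 12090, 12740 and 16260 TPM in the Restored libraries. Thus the pathway took a median of 1.91% of all transcripts with p53 off and 1.27% with p53 on, and the sum was lower in 9 of 9 pairs. The enzymes from triose phosphate to pyruvate went from a median sum of 10400 to 6588 TPM, and the genes of lactate and pyruvate fate from 3806 to 2161 TPM. The preparatory phase from hexokinase to aldolase moved less, from 2653 to 2368 TPM, and was also lower in 9 of 9 pairs. Most of this sum was Aldoa (1455 to 2969 TPM in Control and 1248 to 1754 TPM in Restored libraries). It does not speak for each gene of the phase. The oxidative pentose phosphate genes summed to a median of 600 TPM in Control and 545 TPM in Restored libraries, lower in 8 of 9 pairs. The non-oxidative pentose phosphate genes summed to 950 TPM in Control and 1060 TPM in Restored libraries, lower in 4 pairs and higher in the rest. This last sum rose mainly in 4711-18, where Taldo1 rose. It fell in all pairs of 4711-1 and was mixed in 4716-11, while Tkt and Rpia fell in all pairs. In such bulk samples, fewer cells of a kind and less RNA per cell cannot be told apart, and TPM, which share a fixed total, give only the part of the transcripts that a gene takes.

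**Figure D2:**
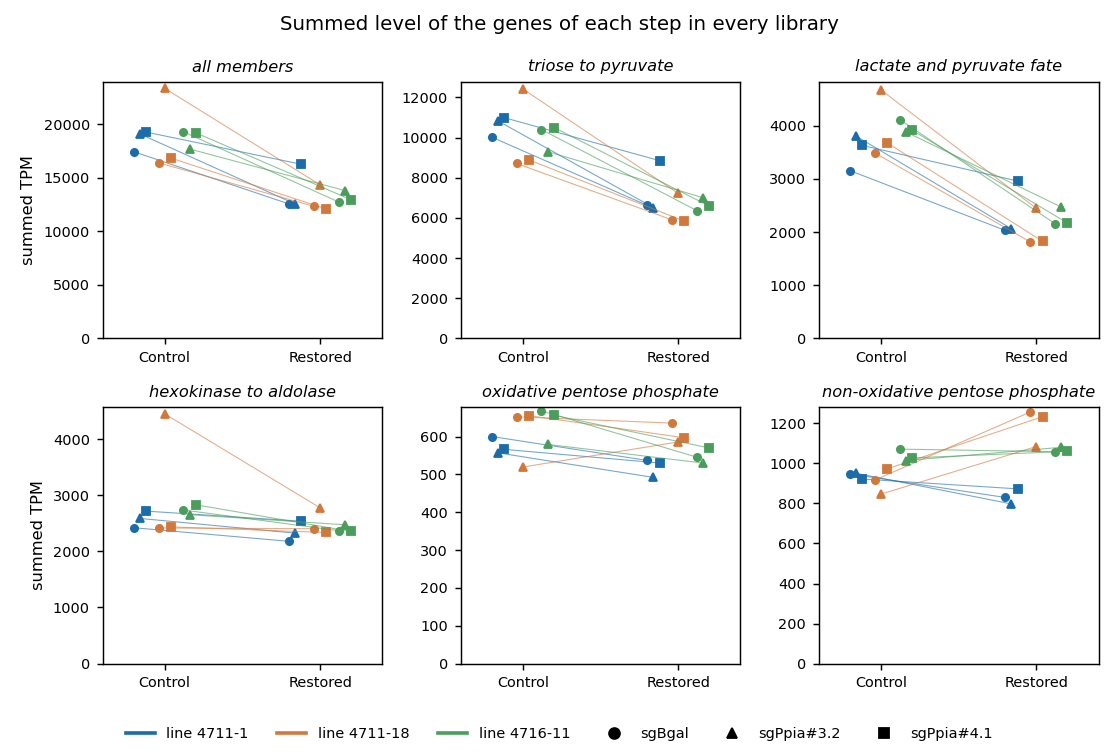
Summed TPM (vertical axes, from 0) of all 34 genes and of 5 groups of steps in the 18 libraries, with a line joining the Control and Restored library of the same cell line (colour) and sgRNA (symbol). The sums of all genes, of triose to pyruvate and of lactate and pyruvate fate were lower in all 9 pairs, whereas the non-oxidative pentose phosphate sum was lower in 4.

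At glucose entry, no change was called. Slc2a1, which encodes the basal glucose transporter GLUT1, was at a median of 261 TPM in Control (171 to 410) and 216 TPM in Restored libraries (169 to 476). Its log2 fold change was -0.07, with a 95% confidence interval from -0.56 to 0.41, and it was lower in 5 of 9 pairs. Slc2a1 made up at least 99.95% of the summed Slc2a1 and Slc2a3 level in every library.

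Hk1, the housekeeping hexokinase, rose. It was between 119.6 and 169 TPM in the Control libraries, with a median of 151.6 TPM, and between 179 and 254.5 TPM in the Restored libraries, with a median of 195 TPM. All Restored libraries were thus above all Control libraries, and the log2 fold change was 0.43 (SE 0.09, limma adjusted p = 0.0022), which was not called after rescaling (adjusted p = 0.060). Hk2, the inducible hexokinase, was at a median of 39.6 TPM in Control and 64.5 TPM in Restored libraries, and was higher after restoration in 5 of 9 pairs. Its log2 fold change of 0.43 (95% confidence interval -0.21 to 1.07) had an adjusted p of 0.28 in limma, and without the 4711-18 sgPpia#3.2 Control library, where Hk2 was at 118 TPM, it was 0.65 with an adjusted p of 0.041. Hk1 was the main isoform, at 58.7 to 85.5% of both in Control and 59.3 to 85.8% in Restored libraries. Gpi1, glucose phosphate isomerase, was at 394 to 694 TPM and had a log2 fold change of -0.02.

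The phosphofructokinase isoforms, which commit glucose carbon to glycolysis, moved apart. Pfkl, the liver-type isoform, was at 116.5 to 242 TPM in Control libraries and 62.4 to 132 TPM in Restored libraries. It fell in every pair by 0.72 on the log2 scale (SE 0.16, limma adjusted p = 0.0023), and its states overlapped between lines but within none of them. Pfkp, the platelet-type isoform, was lower by a similar amount from a lower level (median 21.4 TPM in Control and 12.6 TPM in Restored libraries; log2 fold change -0.70, limma adjusted p = 0.039). The call for Pfkp did not hold when any line or the 4711-18 sgPpia#3.2 Control library was left out, with limma adjusted p-values from 0.060 to 0.15. Pfkm, the muscle-type isoform, did not follow them. Its level was 99.6 to 129 TPM in Control and 109 to 136.7 TPM in Restored libraries, with a log2 fold change of 0.13 (-0.07 after rescaling). As a result Pfkl made up 45.6 to 59.7% of the 3 isoforms with p53 off and 30.8 to 47.8% with p53 on. Pfkm went the other way, from 30.9 to 45.2% up to 46.3 to 64.6%, without overlap between the states.

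Fructose 2,6-bisphosphate, the strongest activator of phosphofructokinase, is set by bifunctional enzymes and by Tigar, which breaks it down. Pfkfb3, the isoform whose kinase activity most exceeds its phosphatase activity, fell from a median of 3.96 to 1.83 TPM (log2 fold change -0.72, SE 0.18, limma adjusted p = 0.0054). Without 4711-1 its adjusted p in limma was 0.067. Pfkfb2 was at 2.06 to 7.44 TPM and had a log2 fold change of 0.23, which passed only with the replicate block (limma adjusted p = 0.038). Tigar rose in 9 of 9 pairs, but by little. In Control it was at 26.1, 26.0 and 28.2 TPM with sgBgal, 22.2, 19.1 and 20.8 TPM with sgPpia#3.2 and 24.7, 24.1 and 23.6 TPM with sgPpia#4.1, in 4711-1, 4711-18 and 4716-11 in this order. In Restored cells the values were 33.7, 34.1 and 29.9 TPM, 28.1, 25.8 and 27.4 TPM, and 32.4, 33.2 and 29.6 TPM. The states overlapped, as the values with sgPpia#3.2 lay below those with sgBgal in both, a difference that was not called. The log2 fold change of Tigar on restoration was 0.34 (SE 0.07, limma adjusted p = 0.0012), or 1.27-fold, and was not called after rescaling (adjusted p = 0.14).

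Aldolase closes the preparatory phase. Aldoc, the brain-type isoform, showed the largest fall of all 33 genes. It was at 20.4 TPM in the lowest, 26.0 in the median and 82.0 in the highest Control library, and at 6.93, 10.7 and 24.9 TPM in the Restored libraries. Only the Restored library of 4711-1 with sgPpia#4.1 reached the range of the Control libraries, and the highest Control value was that of 4711-18 with sgPpia#3.2. Aldoc fell in 9 of 9 pairs, by 1.38 on the log2 scale (SE 0.29, limma adjusted p = 0.0016). Aldoa, the main isoform with at least 96.5% of both, was at 1455 to 2969 TPM in Control and 1248 to 1754 TPM in Restored libraries. Its log2 fold change was -0.30 (limma adjusted p = 0.045). The call was lost without 4711-1 (adjusted p = 0.14 in limma), without 4716-11 (0.25) and without the 4711-18 sgPpia#3.2 Control library (0.056), although Aldoa was lower in all pairs.

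In the pay-off phase, 5 of 7 genes fell at the adjusted p alone, against 11.2% of all tested genes. Tpi1, triose phosphate isomerase, was at 1545, 1678 and 2629 TPM (lowest, median and highest) in Control and 978, 1110 and 1387 TPM in Restored libraries. Eno1, the ubiquitous enolase, was at 1301, 1607 and 1748 TPM in Control and 766, 974 and 1083 TPM in Restored libraries. Neither gene overlapped between the states, and the log2 fold changes were -0.66 (SE 0.11, limma adjusted p = 0.00024) and -0.72 (SE 0.10, limma adjusted p = 6.3e-05). Pgk1, phosphoglycerate kinase, fell from a median of 1601 to 975 TPM (log2 fold change -0.67, SE 0.12, limma adjusted p = 0.00067) and Pkm, pyruvate kinase, from 4140 to 2653 TPM (-0.56, SE 0.11, adjusted p = 0.00075). By mean TPM, Pkm was the most abundant of the 34 genes. Pgam1, phosphoglycerate mutase, was lower in 9 of 9 pairs, with medians of 926.5 and 711 TPM. Its log2 fold change of -0.35 had an adjusted p of 0.094 in limma and of 0.0049 with the replicate block. Eno2, the neuronal enolase, was at 1.37 to 2.79 TPM and was higher after restoration in 8 of 9 pairs. Its log2 fold change was 0.20 (limma adjusted p = 0.13), and without the 4711-18 sgPpia#3.2 Control library it was 0.26 with an adjusted p of 0.024.

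Gapdh, glyceraldehyde phosphate dehydrogenase, is often used as a reference gene. It was at 157.8, 204.8 and 223.8 TPM in Control cells with sgBgal, in 4711-1, 4711-18 and 4716-11, and at 170.6, 156 and 164 TPM after restoration. The Restored value was the higher of both in 4711-1 and the lower in the other lines. With sgPpia#3.2 the values were 232, 285 and 222.7 TPM in Control and 169.9, 152.6 and 178 TPM in Restored cells, and with sgPpia#4.1 they were 218.9, 241.6 and 243 and then 192, 165 and 155 TPM. Gapdh was lower in 8 of 9 pairs and fell on average, with a log2 fold change of -0.42 (SE 0.09, limma adjusted p = 0.0022). Without 4711-18 it was -0.32 with an adjusted p of 0.064 in limma. The counting of several of these genes is uncertain. Of the 31-base words of the longest Gapdh transcript in GENCODE M21, 84.1% also occur in transcripts of other genes, and the gene that shares most of them, Gm7336, is not in the deposited table. The share was 77.2% for Eno1, 68.3% for Pgk1, 50.9% for Pkm, 42.1% for Pgam1, 34.2% for Aldoa and Ldha and 41.4% for Ldhb, and 0% for Hk1, Pfkm, Aldoc, Slc16a1, Tkt, Rpia and Rpe. The table lists Eno1b, an Eno1 copy, at 742.8 to 1029 TPM in Control and 415.6 to 671.5 TPM in Restored libraries, so part of the reads of Eno1 may stand under that name. The effect of shared words on the fold changes was not tested.

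**Figure D3:**
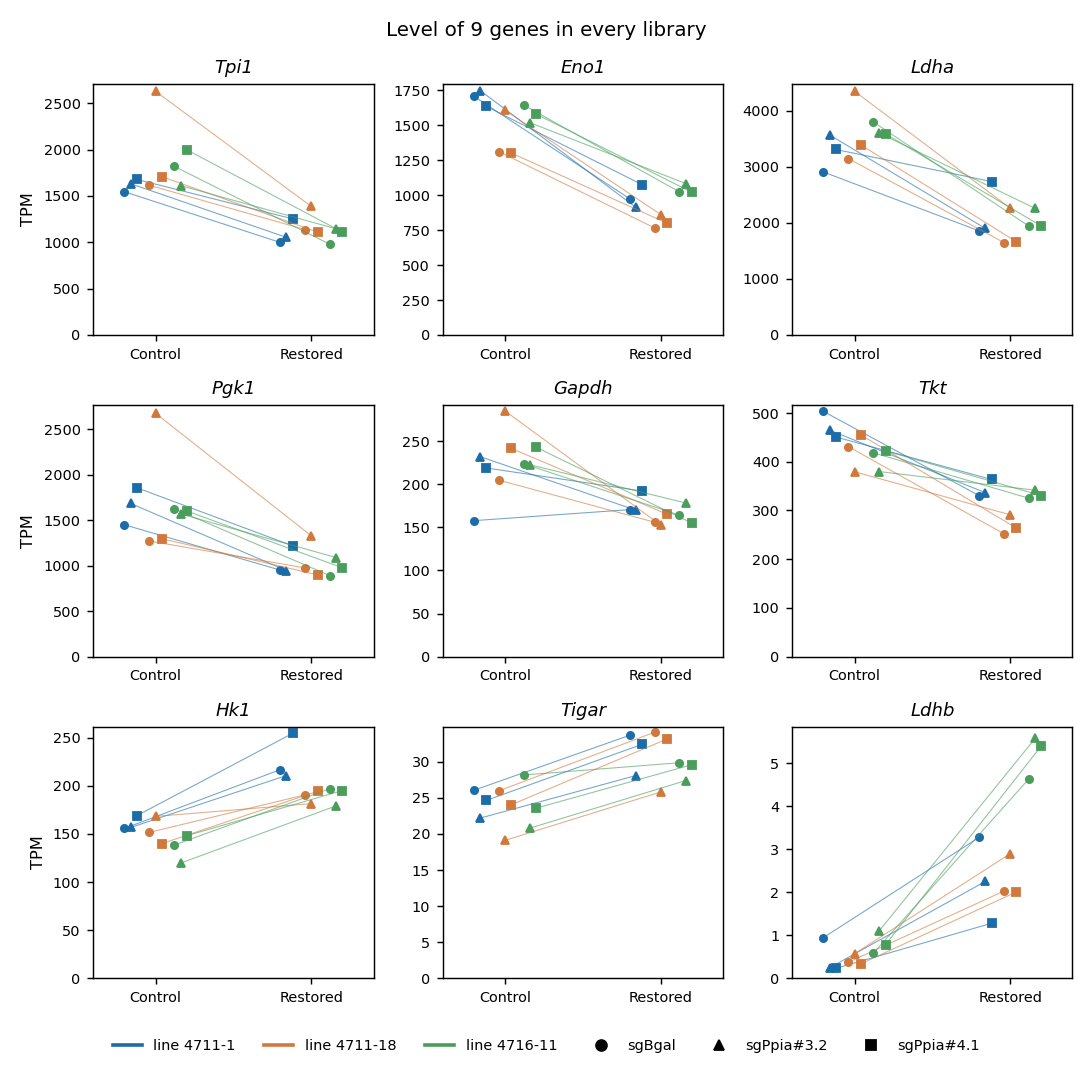
TPM (vertical axes, from 0) of 9 genes in the 18 libraries, with a line joining the Control and Restored library of the same cell line (colour) and sgRNA (symbol). Tpi1, Eno1, Ldha and Tkt were lower and Hk1 and Ldhb higher in all Restored than in all Control libraries, and Gapdh was higher after restoration only in 4711-1 with sgBgal.

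At the lactate step, genes of the same family moved in opposite directions. Ldha, the muscle-type lactate dehydrogenase subunit that favours lactate formation, was at 2906, 3146 and 3799 TPM in Control cells with sgBgal and at 1856, 1647 and 1939 TPM after restoration, in 4711-1, 4711-18 and 4716-11. With sgPpia#3.2 it was at 3566, 4346 and 3598 TPM and then 1900, 2261 and 2257 TPM, and with sgPpia#4.1 at 3307, 3390 and 3583 TPM and then 2735, 1662 and 1942 TPM. All Restored libraries were below all Control libraries, and Ldha fell by 0.81 on the log2 scale (SE 0.10, limma adjusted p = 3.4e-05), to 0.572 times the Control level. Ldhb, the heart-type subunit, was close to silent in Control libraries, at 0.229 to 1.11 TPM, and stood at 1.28 to 5.58 TPM in Restored libraries. It rose in 9 of 9 pairs by 1.37 on the log2 scale (SE 0.21, limma adjusted p = 0.00016), which understates the ratio at such low values. Ldhb still made up at most 0.278% of both subunits in the Restored libraries, after at most 0.0325% in the Control libraries.

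Lactate leaves and enters cells through the transporters encoded by Slc16a1 (MCT1) and Slc16a3 (MCT4). Slc16a1 was at 41.2, 66.1 and 135.6 TPM (lowest, median and highest) in Control and 22.6, 31.2 and 39.7 TPM in Restored libraries. The states did not overlap, and Slc16a1 fell by 1.16 on the log2 scale (SE 0.24, limma adjusted p = 0.0015). Slc16a3 had a log2 fold change of 0.23 with a 95% confidence interval from -1.85 to 2.30, as its level differed greatly between lines. Of the genes that steer pyruvate, Pdk1, a kinase that shuts off pyruvate dehydrogenase, fell from a median of 35.1 to 20.8 TPM (log2 fold change -0.66, SE 0.21, limma adjusted p = 0.020). Pdha1, the catalytic subunit that this kinase acts on, fell as well, from 159 to 106 TPM (-0.51, SE 0.17, adjusted p = 0.027 in limma). Pdk1 was no longer called without 4711-1 or 4716-11 (limma adjusted p = 0.069 and 0.18), nor was Pdha1 without 4711-1 or 4711-18 (adjusted p = 0.19 and 0.12). Pdk2, another kinase of the family, was at 8.46 to 18.7 TPM with a log2 fold change of 0.13 (-0.05 after rescaling). The share of Pdk1 in the sum of both kinases was a median of 78.4% in Control and 65.7% in Restored libraries.

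Promoters are shown for 4 genes with a called change around the pay-off and lactate steps, to compare 3 genes that fell (Ldha, Pgk1 and Slc16a1) with Ldhb, which rose. They are the 250 bases before an annotated start from RefSeq (GRCm38.p6), at chr7:46845554-46845803 (plus strand), chrX:106186850-106187099 (plus strand), chr3:104638414-104638663 (plus strand) and chr6:142507958-142508207 (minus strand) in this order. Capitals mark ACGTG on either strand, a form of the core that HIF binds. It also forms part of the E-box CACGTG bound by MYC and related factors. Other forms of the HIF core were not searched for, so a window with 0 marked stretches may still hold such a form.
Ldha: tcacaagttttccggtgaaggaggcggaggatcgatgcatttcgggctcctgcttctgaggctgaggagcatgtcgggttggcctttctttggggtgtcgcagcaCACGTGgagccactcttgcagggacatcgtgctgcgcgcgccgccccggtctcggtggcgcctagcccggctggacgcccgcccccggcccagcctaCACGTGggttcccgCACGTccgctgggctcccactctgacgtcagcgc
Pgk1: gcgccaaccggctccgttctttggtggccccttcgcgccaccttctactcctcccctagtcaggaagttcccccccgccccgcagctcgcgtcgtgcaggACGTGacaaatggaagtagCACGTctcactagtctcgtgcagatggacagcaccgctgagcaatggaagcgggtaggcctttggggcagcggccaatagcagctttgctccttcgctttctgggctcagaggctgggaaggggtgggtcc
Slc16a1: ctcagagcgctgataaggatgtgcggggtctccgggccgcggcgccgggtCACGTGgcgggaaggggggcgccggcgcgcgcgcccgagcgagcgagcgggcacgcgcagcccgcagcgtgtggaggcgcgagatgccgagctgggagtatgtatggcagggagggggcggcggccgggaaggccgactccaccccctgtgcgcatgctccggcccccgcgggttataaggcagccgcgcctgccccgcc
Ldhb: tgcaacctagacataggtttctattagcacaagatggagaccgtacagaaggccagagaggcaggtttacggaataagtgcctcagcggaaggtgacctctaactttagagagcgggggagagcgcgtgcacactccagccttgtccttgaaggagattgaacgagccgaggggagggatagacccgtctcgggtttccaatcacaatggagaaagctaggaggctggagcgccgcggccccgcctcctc
The window of Ldha held 3 marked stretches, that of Pgk1 2, that of Slc16a1 1 and that of Ldhb 0. Ldha has 2 annotated starts in the table, of which the first is shown, and the window of the other held 0 copies of ACGTG. The contrast between the genes shown depends on their choice, since Tpi1 and Eno1, which also fell, held 0 copies at each of their annotated starts. The RefSeq table held promoters of 33 of the 34 genes. In its windows of 300 bases, which also take in the first 50 bases after the start, ACGTG occurred in 21 of 50 promoters of these genes (42%) and in 19.6% of all 32851 promoters. The E-box CACGTG, each copy of which also holds ACGTG, occurred in 12% and 7.15%, and the p53 decamer, the unit from which p53 response elements are built, in 4% and 8.36%. By gene, ACGTG was found in at least 1 promoter of 9 of the 17 genes that fell, 1 of the 5 that rose and 7 of the 11 that were not called. A match of letters shows no binding, and no promoter set of like base composition was compared.

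The oxidative arm of the pentose phosphate pathway was split. G6pdx, glucose 6-phosphate dehydrogenase and the NADPH-forming entry step, was at 110.7, 122 and 177 TPM (lowest, median and highest) in Control and 64.6, 74.7 and 130 TPM in Restored libraries. It fell in every pair (log2 fold change -0.59, SE 0.15, limma adjusted p = 0.0063). Pgls, the lactonase that follows, rose in every pair, from a median of 129 to 163.5 TPM (0.34, SE 0.09, adjusted p = 0.0069 in limma). G6pdx was not called without 4711-1 or without 4716-11 (limma adjusted p = 0.077 and 0.092), and Pgls was not called without 4716-11 (adjusted p = 0.14) or after rescaling. Pgd, the second NADPH-forming enzyme, was at 211 to 423 TPM and was lower in 7 of 9 pairs, with a log2 fold change of -0.16 (limma adjusted p = 0.26, and -0.36 with 0.039 after rescaling).

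The non-oxidative arm was split too. Tkt, transketolase, was at 379.5, 431 and 503 TPM (lowest, median and highest) in Control and 252, 330.5 and 364 TPM in Restored libraries. The states did not overlap, and Tkt fell by 0.47 on the log2 scale (SE 0.09, limma adjusted p = 0.0013). Rpe, which makes xylulose 5-phosphate, was at 23.8 to 32.1 TPM in Control and 31.4 to 53.1 TPM in Restored libraries. It rose in 9 of 9 pairs, by 0.66 on the log2 scale (SE 0.11, limma adjusted p = 0.00027). Rpia, which makes ribose 5-phosphate, fell from a median of 33.9 to 13.95 TPM (-0.84, SE 0.21, adjusted p = 0.0053 in limma), but not past the threshold without 4716-11 (adjusted p = 0.16). Taldo1, transaldolase, had a log2 fold change of 0.43 (SE 0.18), with an adjusted p of 0.066 in limma and 0.0089 with the replicate block. With 1 value per line and state its adjusted p in limma was 0.14. Rpia and Taldo1 differed between the lines, as described next.

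The response of 3 genes differed between the cell lines (moderated F-test in limma, Benjamini-Hochberg adjusted over all genes, of which 4.92% passed). In this test the 3 libraries of a line and state, which differ in sgRNA, served as replicates. They come from the same line, so p measures the spread between libraries. The same 3 genes passed without the 4711-18 sgPpia#3.2 Control library, when 13.5% of all genes did, so that 3 of 33 is then below the share of all genes. Taldo1 was at 400, 446 and 422 TPM in Control cells of 4711-1 (sgBgal, sgPpia#3.2 and sgPpia#4.1) and at 444, 412.6 and 462 TPM in Restored cells. In 4711-18 it was at 411.7, 401 and 451 TPM and then at 931.6, 726 and 906 TPM. In 4716-11 it was at 586.7, 577.5 and 544 TPM and then at 670.2, 676.5 and 663 TPM. The log2 fold changes were 0.06, 1.01 and 0.23 (adjusted p of the difference in limma, 0.0033), so that the clear rise was that of 4711-18. Rpia was at 15.6 to 20.8 TPM in Control cells of 4711-1, 37.9 to 41.6 TPM in 4711-18 and 30.4 to 35.1 TPM in 4716-11, and ended at 13.1 to 15.5, 16.4 to 20.8 and 13.65 to 13.95 TPM in Restored cells. Its log2 fold changes were -0.29, -1.03 and -1.20 (limma adjusted p of the difference, 0.014). Rpia thus differed more between the lines in Control than in Restored cells, and 4711-1, with the least Rpia in Control cells, had the smallest difference. Slc16a1 had the same form: 41.2 to 56.7, 106 to 135.6 and 65.5 to 67.1 TPM in Control cells and 22.6 to 30.5, 37.4 to 39.7 and 31.1 to 33.9 TPM in Restored cells of 4711-1, 4711-18 and 4716-11. Its falls were 0.85, 1.62 and 1.02 on the log2 scale (limma adjusted p of the difference, 0.045). With a pseudocount of 0.1 and with no filter on low values, this last difference was not called (adjusted p = 0.075 and 0.055 in limma).

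Levels set a line apart in few of the genes. In 2 of 33 genes all 6 libraries of a line lay above or below the other 12 libraries, against 16.2% of all tested genes. Slc16a3 was at 13.1 to 48.9 TPM in 4711-1 and at 0.56 to 2.36 TPM in 4711-18 and 0.233 to 1.28 TPM in 4716-11. Pfkfb2 was highest in 4711-18. As a share of both lactate transporters, Slc16a1 therefore made up 42.7 to 71.8% in 4711-1, but 95.5% or more in every library of the other lines.

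**Figure D4:**
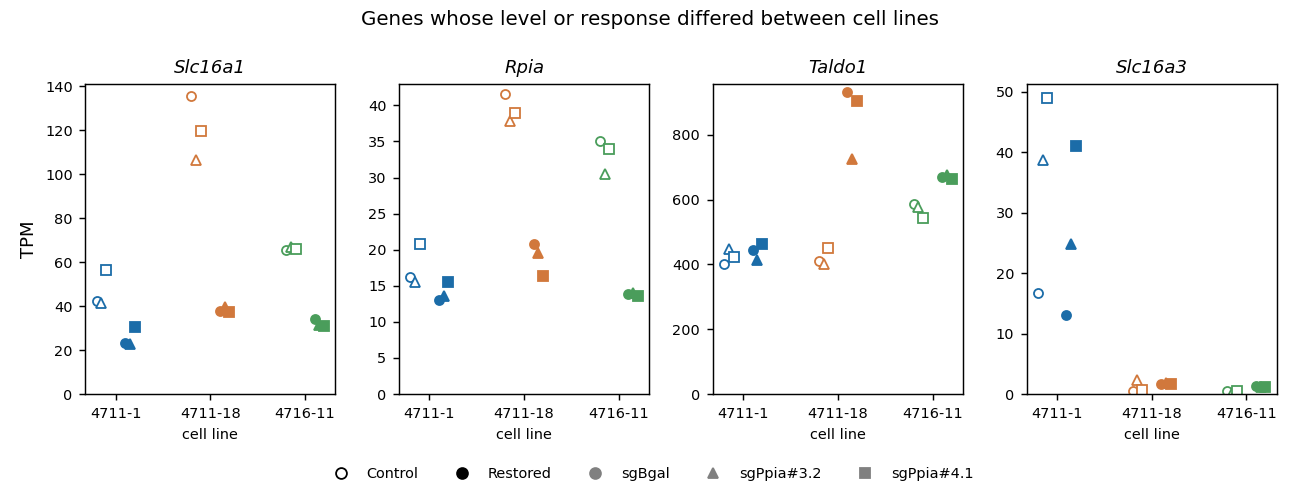
TPM (vertical axes, from 0) of Slc16a1, Rpia, Taldo1 and Slc16a3 by cell line, with open symbols for Control and filled symbols for Restored libraries and a symbol shape for each sgRNA. Slc16a1 and Rpia lay closer together in the Restored than in the Control libraries, Taldo1 rose mainly in 4711-18, and Slc16a3 was high in 4711-1 alone.

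The study targeted Ppia to ask whether cyclophilin A shapes the response to p53. Within single sgRNAs, with 3 libraries against 3, fewer genes passed. After restoration 5 genes fell and 2 rose with sgBgal (3.96% and 9.86% of all genes), 5 fell and 2 rose with sgPpia#3.2 (2.39% and 7.62%), and 3 fell and 2 rose with sgPpia#4.1 (3.14% and 7.16%). Tpi1, Eno1, Ldha, Ldhb and Rpe were called with each sgRNA. Without the 4711-18 sgPpia#3.2 Control library 3 genes passed with sgPpia#3.2, of which Eno1 and Ldha fell (2.21% of all genes) and Rpe rose (7.33%), while Tpi1 and Ldhb had adjusted p-values of 0.096 and 0.051 in limma. The 3 comparisons used different libraries, and the log2 fold changes of Ldha were -0.85, -0.84 and -0.73 (SE 0.18 each) and those of Ldhb 1.37, 1.45 and 1.30 (SE 0.37 each), in the order sgBgal, sgPpia#3.2 and sgPpia#4.1. The median over the 33 genes was -0.24, -0.41 and -0.28, and that over all genes 0.19, 0.17 and 0.15. With the replicate block 17, 17 and 18 genes were called, against 42.1%, 34.1% and 35.1% of all genes.

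No gene of the pathway was called between a Ppia sgRNA and sgBgal, or for a difference in the response to restoration. In each of the 4 comparisons with sgBgal and both interactions 0 of 33 genes passed in limma, and 0% of all tested genes did. At an unadjusted p under 0.05 there were 3 genes for sgPpia#3.2 in Control cells (Tigar, Gapdh and Pgd), 1 for sgPpia#3.2 in Restored cells (Tigar) and 0 in the other comparisons and in the interactions. Over all genes that level was reached by 2.42% and 1.2% for sgPpia#3.2, by 0.21% and 0.53% for sgPpia#4.1 (Control and Restored), and by 0.242% and 0.14% for the interactions of sgPpia#3.2 and sgPpia#4.1. Without the 4711-18 sgPpia#3.2 Control library 2 genes reached that level for sgPpia#3.2 in Control cells (Tigar and Pfkfb3), against 2.19% of all genes, while Gapdh and Pgd did not. The replicate block gave 7 and 2 genes for sgPpia#3.2 at that unadjusted level and again 0 after adjustment, against 12.7% and 8.64% of all genes unadjusted. For sgPpia#4.1 and the interactions it gave 0 genes, against 1.26%, 3.31%, 1.36% and 0.624% of all genes. In the median gene the 95% confidence interval reached 0.55 on the log2 scale to either side of the estimate for a comparison with sgBgal and 0.78 for an interaction, and 0.35 and 0.50 with the replicate block. Differences of less than the latter were mostly not detectable by either fit.

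Tigar had the smallest p of these with all libraries. Without the 4711-18 sgPpia#3.2 Control library it was Pfkfb3 in Control cells, with a log2 difference of -0.86 (limma adjusted p = 1.00), which was -0.51 with all libraries and -0.64 without the line 4711-18. In the Tigar values given above, all 3 libraries with sgPpia#3.2 were below all 3 with sgBgal in Control and again in Restored cells. The log2 difference of Tigar was -0.36 in Control cells (SE 0.12, limma adjusted p = 1.00) and -0.25 in Restored cells (SE 0.12, limma adjusted p = 1). With the replicate block the limma adjusted p was 0.26 and 0.57. By exact permutation of the 6 libraries (two-sided) p was 0.1 in each state, which is the smallest value that such groups can give. With sgPpia#4.1 Tigar was also lower in all Control libraries (-0.14) and overlapped in Restored libraries (-0.04). Such a separation of 3 libraries from 3 was seen in 1 gene of 33 with sgPpia#3.2 in Control cells (6.64% of all genes), 4 in Restored cells (4.94%; Tigar, Eno2, Pgls and Pgd), and with sgPpia#4.1 in 2 (2.27%; Pfkm and Tigar) and 1 (2.33%; Eno2). Pgd differed by -0.43 with sgPpia#3.2 in Control cells (SE 0.19, limma adjusted p = 1.00), and by -0.23 without the 4711-18 sgPpia#3.2 Control library, which had the lowest value of the 3 (210.8 TPM, against 303 and 339.6 TPM in 4711-1 and 4716-11). Gapdh differed by 0.27 with sgPpia#4.1 in Control cells (95% confidence interval -0.06 to 0.61), Pgls by 0.28 with sgPpia#3.2 in Restored cells (-0.04 to 0.61), and Eno2 by -0.25 (-0.62 to 0.12) and Ldha by 0.19 (-0.19 to 0.58) with sgPpia#4.1 in Restored cells. With all libraries, the sgPpia#3.2 interactions with the smallest p were those of Gapdh (-0.31, 95% confidence interval -0.79 to 0.16, and -0.20 without that library) and Tkt (0.25, -0.24 to 0.74). With sgPpia#4.1 they were those of Gapdh (-0.22, -0.69 to 0.26) and Pfkm (0.19, -0.23 to 0.62). Without the 4711-18 sgPpia#3.2 Control library, Pdk2 (0.54, and 0.20 with all libraries) and Pfkfb3 (0.69, and 0.34 with all libraries) came first for sgPpia#3.2. None of these interactions passed in limma. All of these comparisons share the sgBgal libraries of their state.

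**Figure D5:**
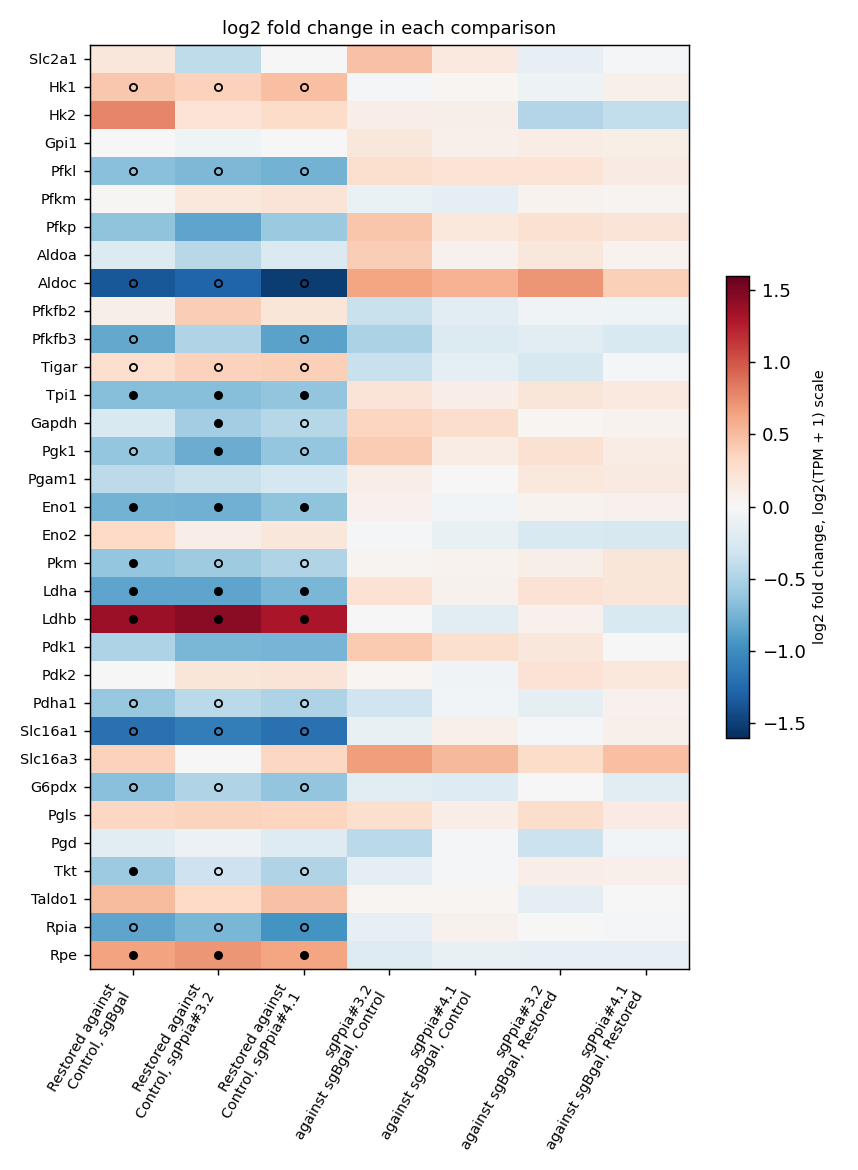
Log2 fold change (colour, log2(TPM + 1) scale) of the 33 tested genes in the 3 restoration comparisons and the 4 comparisons of a Ppia sgRNA with sgBgal. Filled circles mark an adjusted p under 0.05 in limma, open circles mark genes that passed only with the replicate block; circles occur in the restoration columns only.

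Related genes outside the list moved in both directions, by the same test of restoration over the 3 sgRNAs, in which 27.9% of all tested genes rose and 11.2% fell (44.1% and 19.3% with the replicate block). Of 23 tested paralogues and neighbours in glucose handling, 5 rose and 4 fell. With the replicate block 7 rose and 8 fell, so that the balance turned. Fbp2, a fructose bisphosphatase that was at 41.6 TPM in the median Restored library, had a log2 fold change of -0.68, with an adjusted p of 0.54 in limma and of 0.00059 with the block. Slc2a9, a urate and hexose transporter, was at 1.31 to 3.99 TPM in Control and 9.47 to 38.2 TPM in Restored libraries (log2 fold change 3.08, limma adjusted p = 8.6e-07). Pcx, pyruvate carboxylase, which feeds pyruvate into the citric acid cycle, rose from a median of 19.2 to 64.2 TPM (1.75, adjusted p = 8.2e-05 in limma). Pklr, the liver and red cell pyruvate kinase, fell from a median of 12.9 to 1.27 TPM (-2.41, SE 0.59, limma adjusted p = 0.0050). Slc2a9 and Pcx did not overlap between the states, whereas Pklr did.

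Among 13 tested genes of mitochondrial pyruvate entry, 1 rose and 3 fell, and 2 rose and 6 fell with the replicate block (27.9% and 11.2% of all genes, and 44.1% and 19.3% with the block). Mpc1, a subunit of the mitochondrial pyruvate carrier, was lower in 9 of 9 pairs, with a limma adjusted p of 0.28 and of 7.6e-05 with the block. Pdp2, a phosphatase that reactivates pyruvate dehydrogenase, fell from a median of 11.7 to 6.08 TPM (log2 fold change -0.80, limma adjusted p = 0.00024), and Dlat, the second subunit of the complex, fell by 0.34 on the log2 scale (adjusted p = 0.023 in limma). With Pdha1 and Pdk1, this placed both activating and inactivating genes of the complex among those that fell. Slc16a8, a monocarboxylate transporter, rose from 0.973 to 1.56 TPM (0.51, limma adjusted p = 0.040). Without the 4711-18 sgPpia#3.2 Control library 2 rose in this list, Bsg being added. Of 7 tested genes around ribose, 2 rose and 2 fell (2 and 3 with the block, 2 and 1 without that library), against 27.9% and 11.2% of all genes. Prps2, which makes phosphoribosyl pyrophosphate from the ribose 5-phosphate that Rpia supplies, rose from a median of 36.5 to 92.2 TPM (1.61, limma adjusted p = 0.00011) without overlap. Its paralogue Prps1 fell from 41.6 to 33.6 TPM (-0.51, adjusted p = 0.044 in limma, and 0.083 without that library), and Shpk, sedoheptulokinase, rose from 1.17 to 3.13 TPM (0.82, adjusted p = 0.0012 in limma).

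Of 10 tested transcription factors and sensors of glucose, 2 rose and 1 fell (3 and 2 with the block), against 27.9% and 11.2% of all genes, or 44.1% and 19.3% with the block. Mycl, the L-Myc gene often amplified in small cell lung cancer, fell from a median of 4.81 to 0.574 TPM (log2 fold change -1.69, SE 0.29, limma adjusted p = 0.00035). Epas1, encoding HIF-2α, rose from 7.71 to 12.1 TPM (0.63, adjusted p = 0.041 in limma) and Arrdc4, a glucose-responsive arrestin, from 0.59 to 1.45 TPM (0.68, adjusted p = 0.0036 in limma). Of 13 HIF targets outside glycolysis, 0 passed in limma, with 1 at an unadjusted p under 0.05 (47.8% of all tested genes) and a median log2 fold change of 0.01. With the replicate block 2 of them rose (Vegfa and Kdm3a) and 1 fell (Egln3), and without the 4711-18 sgPpia#3.2 Control library 1 rose (Vegfa). Of 9 tested p53 targets with metabolic roles, 4 rose and 1 fell (4 and 2 with the block, against 27.9% and 11.2% of all genes, or 44.1% and 19.3% with the block). Gls2, a glutaminase, was the one that fell, from a median of 11.6 to 4.21 TPM and in 9 of 9 pairs (log2 fold change -0.85, limma adjusted p = 0.023). Cpt1c, a carnitine palmitoyltransferase, went from a median of 4.46 to 65.2 TPM (2.67, SE 0.79, limma adjusted p = 0.015), Aldh4a1, a proline catabolism enzyme, from 12.3 to 64.4 TPM (2.11, adjusted p = 1.4e-06 in limma) and Lpin1, a phosphatidate phosphatase, from 6.72 to 30.2 TPM (2.07, adjusted p = 1.9e-08 in limma).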

How the data were processed

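RNA-sequencing libraries of 18 cultures were analysed. The authors deposited TPM for 25239 genes, 1 column per library. The submitters' processing notes name bcl2fastq 2.17 and HISAT2 and the builds mm10 and GRCm39. The study's methods name the Kallisto pseudoaligner or HISAT2, without saying which made this table. The annotation is not given in the sources used here, and TPM hold no total count, so no counting interval was computed. Values were taken as log2(TPM + 1). Genes that reached 1 TPM in 3 or more libraries were tested with limma 3.58.1 (R 4.3.3), with a mean for each of 6 conditions and Benjamini-Hochberg adjustment at 0.05, with or without a minimum absolute log2 fold change of 1. The pairing comes from the cell line: deviations from condition means correlated at 0.73 on average within lines (lowest 0.58 over 45 pairs), and fits with the line as a replicate block are given where they changed the call of a pathway gene over the 3 sgRNAs or moved a count of calls by over 1.5 times. The response by line was a moderated F-test with the sgRNA as a term and the libraries of a line as replicates. Otherwise the replicates were cell lines, each a single line grown from a tumour, and no columns were identical. The genes and lists were chosen with earlier results of these data known. Every gene is given by level and fold change, with full statistics for Tigar, Gapdh, up to 12 called genes by fold, the 2 smallest p-values of each Ppia comparison, up to 3 genes by line and up to 3 called genes of each further list. Fuller statistics of further called genes are added beyond this rule. Some results of the marker lists are not reported here. The calculation was tested on simulated data. Promoters are from RefSeq, and shared words of 31 bases from GENCODE M21. Alternatives were a pseudocount of 0.1, rescaling, no filter, a filter of 5 TPM, the block, fits of the compared groups alone, trend and robust estimates, leaving out each line and, chosen after seeing the data, 1 value per line and leaving out the 4711-18 sgPpia#3.2 Control library.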

Additional observations from a re-analysis of the deposited data

Results flagged for a closer look

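The response to p53 restoration differed between the 3 cell lines, by a test of the difference itself (moderated F-test in limma, Benjamini-Hochberg adjusted over all genes), for Taldo1 (adjusted p = 0.0033), Rpia (0.014) and Slc16a1 (0.045). The p-values of this test measure the spread between libraries of the same line. Taldo1 and Rpia were called under all 6 alternatives run for this test, and Slc16a1 under 4 of them. Single libraries were not tested as outliers, as each condition had 3.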

How the results depend on the processing

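Limits: absolute depth is unknown, so low genes such as Ldhb, Eno2, Pfkfb2, Pfkfb3 and Slc16a3 carry an unknown counting error, and a filter of 5 TPM removed Ldhb. The libraries are 3 lines, and each line stands for itself. The numbers of genes called at the adjusted p and a 2-fold change were 1, 1 and 1 with sgBgal, sgPpia#3.2 and sgPpia#4.1 and 3 for the mean. They became 3, 2, 2 and 5 after median-of-ratios rescaling, 3 for each sgRNA with the replicate block, and 7, 7, 5 and 22 at the adjusted p alone. A filter of 5 TPM gave 0 for each sgRNA, no filter gave 0 for sgPpia#4.1, and the compared groups alone gave 2, 0 and 0. Leaving out a line gave 0 to 1 gene for sgBgal and for sgPpia#4.1, 0 for sgPpia#3.2 and 2 to 4 for the mean. Of these counts at a 2-fold change, only the mean with all libraries has a share of all genes given (2.56% lower and 6.37% higher). The other counts show only how the calls depend on the setting and are no result about the pathway. At the adjusted p alone the numbers were 7, 7 and 5 for single sgRNAs and 22 for the mean. They became 11 for sgBgal and 10 for sgPpia#4.1 after rescaling, and 17, 17 and 18 with the replicate block (42.1%, 34.1% and 35.1% of all genes). The compared groups alone, whose fits have few degrees of freedom, gave 3, 0 and 0. For the rescaled single sgRNAs and the compared groups alone, no shares of all genes are given. Those counts show only how the calls depend on the setting. Leaving out a line gave 0 to 4 for sgBgal, 0 to 2 for sgPpia#3.2, 0 to 3 for sgPpia#4.1 and 16 to 19 for the mean, against 3.77 to 7.58%, 1.79 to 7.34%, 2.23 to 6.38% and 24.5 to 29.9% of all genes. Among the counts of pathway genes called at the adjusted p, the replicate block changed no other by more than 1.5 times. Rescaling moved the split of called genes from 5 higher and 17 lower to 2 and 19, and that of all genes from 3581 and 1432 to 2343 and 2400. Without the 4711-18 sgPpia#3.2 Control library the total stayed at 22, with 15 lower, all of them also called lower with it, while the numbers with sgPpia#3.2 became 3 at the adjusted p alone and 0 with a 2-fold change. The same 3 genes were called between lines without it, while the genes called in all went up to 1729. Changes of sign occurred only in genes with no call. Leaving out a line gave log2 fold changes of -0.18 to 0.074 for Slc2a1 (above 0 without 4716-11), -0.119 to 0.1 for Gpi1 (above 0 without 4711-18) and 0 to 0.54 for Slc16a3 (just below 0, rounding to 0, without 4716-11). Gpi1 was at 0.052 without the 4711-18 sgPpia#3.2 Control library, and Pfkm and Pdk2 were at -0.066 and -0.05 after rescaling. Of the remaining recomputed fold changes of single genes for the mean restoration, 325 kept direction and call, 21 lost the call and 9 gained it. The causes were not tested.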
